A study of Mus musculus with 12 samples.

Results

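The paired immunoglobulin receptors described here are 9 genes of myeloid cells: Cd300a, Cd300lf, Cd300lb and Cd300ld of the CD300 family, and Pilra, Sirpa, Lilra5, Trem1 and Trem3. They were chosen by symbol from the 14460 genes of the deposited table, and all 9 were found there. They were proposed with the day-by-day levels of these libraries already known, so those levels and their differences are given as a description and support nothing by themselves. All 9 also passed the filter on low values, which asked for an average of 1 or more across all 12 libraries and kept 12879 genes. Trem3 passed it only through day 3, as its means on days 0, 7 and 30 were 0.939, 1.01 and 0.812.

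The study sequenced total RNA of GFP+ cardiac macrophages from Cx3cr1GFP/+ mice aged 2 to 3 months. In every group GFP takes the place of 1 copy of Cx3cr1, and it is also what the cells were sorted by. Hearts of day 0 came from healthy mice without surgery. The other hearts were taken 3, 7 and 30 days after cryoinjury, a freezing injury used as a model of myocardial infarction, and each group holds 3 biological replicates. Cells of days 0, 7 and 30 are labelled Ly6c low and CX3CR1 high, and cells of day 3 Ly6c high and CX3CR1 low, so time and gate cannot be told apart in any comparison with day 3. Whether a library pools several mice is not given in the sources used here.

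Paired receptors are closely related surface proteins of opposite effect. Inhibitory members carry tyrosine motifs in the cytoplasmic tail that recruit phosphatases such as SHP-1, and activating members have short tails and signal through adaptors with activation motifs, DAP12 (gene Tyrobp) or the Fc receptor gamma chain (gene Fcer1g). On macrophages they set thresholds for phagocytosis and cytokine release, and several CD300 and TREM proteins bind lipids of dying cells or microbial products. By these roles Cd300a, Cd300lf, Pilra and Sirpa are the 4 inhibitory members, and Cd300lb, Cd300ld, Lilra5, Trem1 and Trem3 the 5 activating ones. Cd300lf is known for both signals.

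Depth was 5828904 to 13199576 reads per library. Levels are the deposited normalised read count, called signal, in which 3 reads, the limit that a count of 0 allows, are worth 0.190 to 0.543 depending on the library. These floors cover counting error only. The gate genes followed the labels: Ly6c2 had a mean signal of 14.03 on day 0, 852.5 on day 3, 17.3 on day 7 and 2.81 on day 30, and Cx3cr1 had 152.6, 38.9, 173.6 and 130.7. Replicates differed in Ly6c2, at 1.32, 20.7 and 20.1 on day 0 and 2.88, 26.7 and 22.2 on day 7. The 3 libraries of day 30 differed from each other less than those of the other days did, with a chi-square of 2.18 to 2.93 per gene against 6.20 to 89.2. Replicate 1 of day 0, replicate 1 of day 3 and replicate 2 of day 7 stood apart from their groups, with 64.2 to 66.8, 25.6 to 34.6 and 83.6 to 89.2 against 18.1, 6.20 and 14.9 between the other libraries of the day.

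Promoter sequence is shown for the receptor with the largest rise and the one with the largest fall on day 3, and for Cd300a as the inhibitory CD300 gene at the other end of the cluster. These are the 250 bases before the RefSeq start on GRCm38.p6, 5′ to 3′ on the strand of the gene. Capitals mark a match to the core of the myeloid factor PU.1, GAGGAA, here on the opposite strand and so read as TTCCTC.
Cd300lf, chr11:115133993-115134242, minus strand: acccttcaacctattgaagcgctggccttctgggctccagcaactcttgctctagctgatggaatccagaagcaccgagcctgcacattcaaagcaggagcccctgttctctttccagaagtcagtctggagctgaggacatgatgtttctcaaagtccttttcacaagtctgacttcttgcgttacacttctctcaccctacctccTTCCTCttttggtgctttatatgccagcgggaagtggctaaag
Lilra5, chr7:4237504-4237753, plus strand: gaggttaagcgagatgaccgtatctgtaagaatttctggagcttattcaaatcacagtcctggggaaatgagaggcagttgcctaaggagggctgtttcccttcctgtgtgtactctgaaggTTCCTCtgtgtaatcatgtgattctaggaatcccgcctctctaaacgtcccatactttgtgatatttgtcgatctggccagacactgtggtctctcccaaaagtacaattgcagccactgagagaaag
Cd300a, chr11:114889791-114890040, plus strand: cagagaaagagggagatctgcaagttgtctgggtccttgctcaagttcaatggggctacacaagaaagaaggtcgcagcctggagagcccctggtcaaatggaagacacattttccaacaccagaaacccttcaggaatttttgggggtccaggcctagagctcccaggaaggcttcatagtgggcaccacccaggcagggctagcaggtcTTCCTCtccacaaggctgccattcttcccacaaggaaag
The match lies 43 to 38 bases before the start of Cd300lf, 128 to 123 before that of Lilra5 and 39 to 34 before that of Cd300a.

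Promoters were found for 7 of the 9 receptors, and not for Sirpa and Trem3. For Trem1, unlike the others found, the bases just after the RefSeq start were not in an annotated transcript of the gene. GAGGAA occurred on either strand in Cd300a, Cd300lf, Cd300ld, Pilra, Lilra5 and Trem1, and in 23.3% of the 32851 RefSeq windows of this length. An interferon response element, searched as GAAA repeated after a gap of 2 bases, occurred in Pilra and in 2.98% of all windows. A core of NF-kB sites, searched as GGGA followed by TTCC after a gap of 2 bases, occurred in Cd300ld, where it overlaps the GAGGAA match, and in 1.21% of all windows. The AP-1 letters TGANTCA (6.75% of windows) and the C/EBP letters TTGCNNCAA (1.74%) were not in these 7 windows. These matches are letters in a window, and receptors that were higher and lower on day 3 both carry GAGGAA.

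Cd300lf, which encodes the receptor CLM-1 for phosphatidylserine and sphingolipids, had, with Lilra5, the widest range of the 9 on the log2 scale. Its signal was 1.19, 1.68 and 1.81 on day 0, 174.5, 193.1 and 261.4 on day 3, 25.6, 20.9 and 14.9 on day 7, and 4.45, 5.23 and 3.74 on day 30. No library of one day overlapped those of another, and the order was day 3, day 7, day 30 and day 0. The mean was 134.5-fold higher on day 3 than on day 0, from 9 to 16 reads per library to 1636 to 1975. On the log2(signal + 1) scale used for every difference below, which understates changes of low genes, the difference was 6.35 ± 0.22 (SE from limma over 12 libraries) on day 3, 3.05 ± 0.22 on day 7 and 1.10 ± 0.22 on day 30. The day 30 call ended without the second library of day 30 (0.998), with a pseudocount of 5 (0.53) and when the 3 libraries of day 30 were counted as 1 sample (1.10).

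Cd300a, an inhibitory receptor for phosphatidylserine and phosphatidylethanolamine, moved over a much smaller range from a higher base. Its signal was 100.05, 95.9 and 98.5 on day 0, 141.9, 154.9 and 165.6 on day 3, 161.8, 188.4 and 178.1 on day 7, and 98.0, 96.8 and 97.7 on day 30. All 6 libraries of days 3 and 7 lay above all 6 of days 0 and 30, while days 3 and 7 overlapped, as did days 0 and 30. The difference from day 0 was 0.64 ± 0.12 on day 3, 0.83 ± 0.12 on day 7 and -0.01 ± 0.12 on day 30. Cd300lb, the activating receptor CLM-7 that pairs with DAP12, had the same order of days. Its signal was 31.0, 36.9 and 33.0 on day 0, 49.2, 46.0 and 47.9 on day 3, 53.9, 64.7 and 60.3 on day 7, and 30.3, 35.1 and 33.5 on day 30. Days 7 and 3 did not overlap in Cd300lb, and days 0 and 30 did. Its differences from day 0 were 0.50 ± 0.14, 0.81 ± 0.14 and -0.03 ± 0.14. With quantile normalisation the day 3 calls ended for both, at 0.24 for Cd300a and 0.28 for Cd300lb.

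Cd300ld, an activating receptor that pairs with the Fc receptor gamma chain, went the other way. Its signal was 323.6, 317.1 and 271.1 on day 0, 174.8, 157.7 and 171.0 on day 3, 192.4, 171.8 and 211.8 on day 7, and 287.9, 308.5 and 290.3 on day 30. All libraries of days 3 and 7 lay below all of days 0 and 30, with overlap inside each pair of days. The difference was -0.85 ± 0.13 on day 3, -0.66 ± 0.13 on day 7 and -0.04 ± 0.13 on day 30. Per kilobase of exon, Cd300ld had the highest level of the 4 CD300 members on every day, at 114.9 on day 0 and 63.5 on day 3. Cd300lf was the lowest of them on day 0, at 0.303 per kilobase, and second to Cd300ld on day 3, at 40.7.

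Sirpa, the inhibitory receptor through which CD47 on other cells restrains phagocytosis, was highest on day 7. Its signal was 339.7, 331.4 and 327.4 on day 0, 463.9, 395.3 and 457.9 on day 3, 714.4, 896.4 and 648.3 on day 7, and 370.8, 364.2 and 364.2 on day 30. The 4 days did not overlap, in the order day 7, day 3, day 30 and day 0. The mean of day 7 was 2.26-fold that of day 0, a difference of 1.16 ± 0.14, against 0.39 ± 0.14 on day 3 and 0.14 ± 0.14 on day 30. The day 3 call for Sirpa ended in 8 of the 12 fits that leave out 1 library: those without any 1 of the 3 libraries of day 0 (0.38 to 0.41), replicate 1 or 3 of day 3 (0.35 and 0.36), or any 1 of the 3 of day 30 (0.39). It also ended with the libraries of day 30 counted as 1 sample (0.39) and with quantile normalisation (0.0033).

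Pilra, an inhibitory receptor for sialylated O-glycoproteins, had overlapping libraries in every comparison with day 0 and between days 3 and 7 and days 7 and 30. Its signal was 56.2, 65.1 and 84.8 on day 0, 80.8, 83.8 and 77.8 on day 3, 51.8, 90.1 and 69.5 on day 7, and 61.5, 62.9 and 57.2 on day 30. All libraries of day 3 lay above those of day 30, a pair of days that was not tested. Differences from day 0 were 0.25, 0.02 and -0.16, each ± 0.19. Pilra shares 20.8% of the 50-base words of its transcripts with other genes, mainly Zcwpw1, Pilrb1 and Pilrb2, so its reads are less certain than those of the other members, which shared at most 3.89%.

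Lilra5, an activating receptor of the leukocyte immunoglobulin-like family, was nearly lost on day 3. Its signal was 140.3, 154.1 and 145.6 on day 0, 2.01, 0.826 and 0.265 on day 3, 32.4, 38.4 and 43.1 on day 7, and 94.4, 106.4 and 103.2 on day 30. The 4 days did not overlap, in the order day 0, day 30, day 7 and day 3, the reverse of Cd300lf. Day 3 rested on 2 to 21 reads per library against 804 to 1470 on day 0, and the difference was -6.27 ± 0.24. It was -1.93 ± 0.24 on day 7 and -0.53 ± 0.24 on day 30. The day 30 value did not pass the threshold, but it did with a pseudocount of 5 (-0.51) and with DESeq2 (-0.54).

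Trem1, an activating receptor that pairs with DAP12 and amplifies inflammatory signals, was high on day 3 alone among the 4 days. Its signal was 0.528, 0.629 and 2.17 on day 0, 23.1, 32.9 and 29.4 on day 3, 0.908, 2.66 and 2.19 on day 7, and 2.18, 3.11 and 1.71 on day 30. The libraries of day 3 lay above all others, and days 0, 7 and 30 overlapped. Trem3, a DAP12-coupled relative encoded next to it, had 0.396, 1.15 and 1.27 on day 0, 4.41, 8.38 and 7.41 on day 3, 1.67, 0.925 and 0.438 on day 7, and 0.624, 0.989 and 0.824 on day 30. It had the same split of day 3 from the rest, at lower levels of 46 to 71 reads on day 3 and 3 to 11 on day 0. The day 3 difference was 3.87 ± 0.32 for Trem1 and 1.99 ± 0.31 for Trem3.

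**Figure D1:**
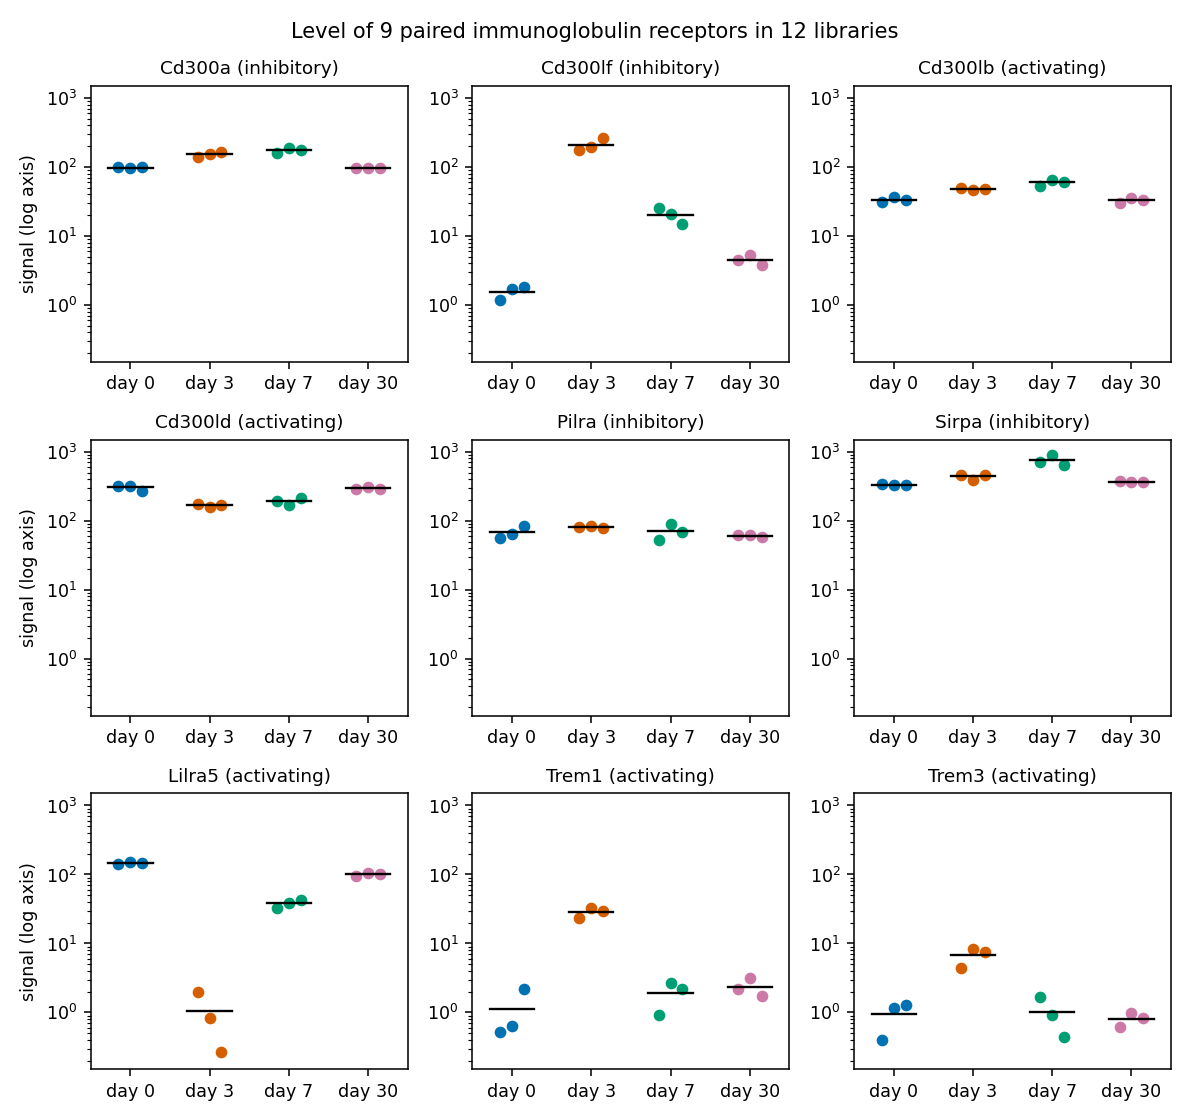
Signal of the 9 receptors in each of the 12 libraries by day, on a log axis, 1 panel per gene, with bars at the group means. Cd300lf, Trem1 and Trem3 are highest on day 3 and Lilra5 is lowest there, while Sirpa is highest on day 7 and each day of Pilra overlaps day 0.

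By limma with Benjamini-Hochberg adjustment at a threshold of 0.05, 8 of the 9 receptors passed on day 3 against day 0 (Pilra did not), where 44.2% of all tested genes passed. They were 6 higher and 2 lower, beside 22.1% of genes higher and 22.1% lower. On day 7 against day 0, 6 receptors passed, where 21.6% of genes did: Cd300a, Cd300lf, Cd300lb and Sirpa were higher and Cd300ld and Lilra5 lower, beside 11.4% of genes higher and 10.2% lower. On day 30 against day 0, 1 receptor passed (Cd300lf, higher), where 6.18% of genes did, 3.45% higher and 2.73% lower. The libraries of the compared days did not overlap for 8 receptors on day 3, 6 on day 7 and 3 on day 30, beside 55.4%, 32.2% and 40.8% of genes. These 3 comparisons share the libraries of day 0, and the members were proposed with the levels known, so nothing is read from the counts. The median difference of the 9 was 0.50 on day 3, 0.50 on day 7 and -0.03 on day 30, beside medians of -0.02, -0.02 and -0.01 over all tested genes.

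Between day 3 and day 7, where 46.8% of genes passed (23.3% higher and 23.5% lower on day 7), 5 receptors did, and the days did not overlap for 6 receptors and 50.9% of genes. Sirpa and Lilra5 were higher on day 7, by 0.77 ± 0.14 and 4.34 ± 0.24, and Cd300lf, Trem1 and Trem3 lower, by -3.30 ± 0.22, -3.37 ± 0.32 and -1.95 ± 0.31. Between day 7 and day 30, which share 1 gate, 39.6% of genes (19.7% higher and 19.9% lower on day 30) and 6 receptors passed, and the days did not overlap for 6 receptors and 55.3% of genes. Cd300ld and Lilra5 were higher on day 30, by 0.62 ± 0.13 and 1.40 ± 0.24. Cd300a, Cd300lf, Cd300lb and Sirpa were lower, by -0.84 ± 0.12, -1.95 ± 0.22, -0.84 ± 0.14 and -1.02 ± 0.14. Counting day 30 as 1 sample ended the calls for Cd300lb (-0.83) and Cd300ld (0.63). Quantile normalisation added Cd300a, Cd300lb and Cd300ld on day 7 against day 3, at 0.56, 0.56 and 0.55.

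**Figure D2:**
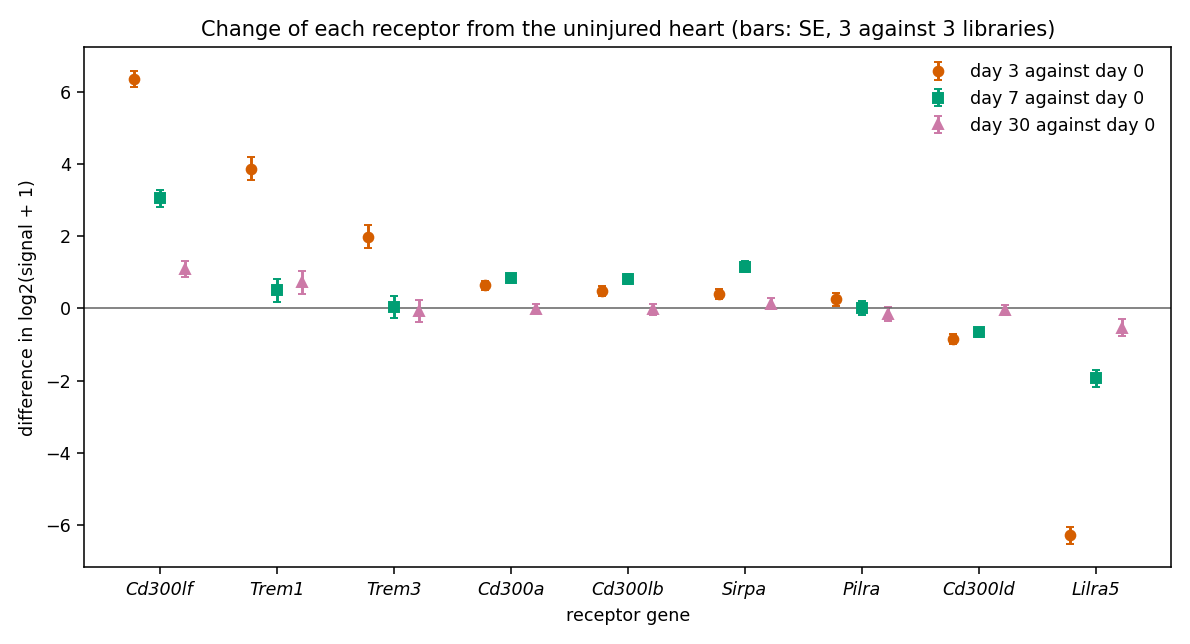
Difference in log2(signal + 1) of each receptor on days 3, 7 and 30 against day 0, with bars of 1 SE from limma (12 libraries). On day 3 the values run from -6.27 for Lilra5 to 6.35 for Cd300lf, and on day 30 from -0.53 to 1.10.

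Summed per kilobase of exon within each library, the 4 inhibitory receptors came to 108.7, 109.1 and 115.2 on day 0, 184.4, 177.8 and 204.1 on day 3, 201.4, 255.5 and 195.0 on day 7, and 117.0, 116.0 and 114.0 on day 30. The 5 activating receptors came to 200.1, 207.0 and 184.8 on day 0, 96.1, 95.2 and 98.5 on day 3, 108.6, 107.2 and 122.4 on day 7, and 165.4, 181.2 and 171.6 on day 30. Of the 9 together, the inhibitory share was 34.5% to 38.4% on day 0, 65.1% to 67.5% on day 3, 61.4% to 70.5% on day 7 and 39.0% to 41.4% on day 30. The activating sum is largely Cd300ld and Lilra5, at 114.9 and 69.6 per kilobase on day 0, and the inhibitory sum largely Sirpa, at 67.8. Cd300lf, known for both signals, is counted as inhibitory, at 0.303 per kilobase on day 0 and 40.7 on day 3. The sums describe these 9 genes as chosen and were not tested.

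**Figure D3:**
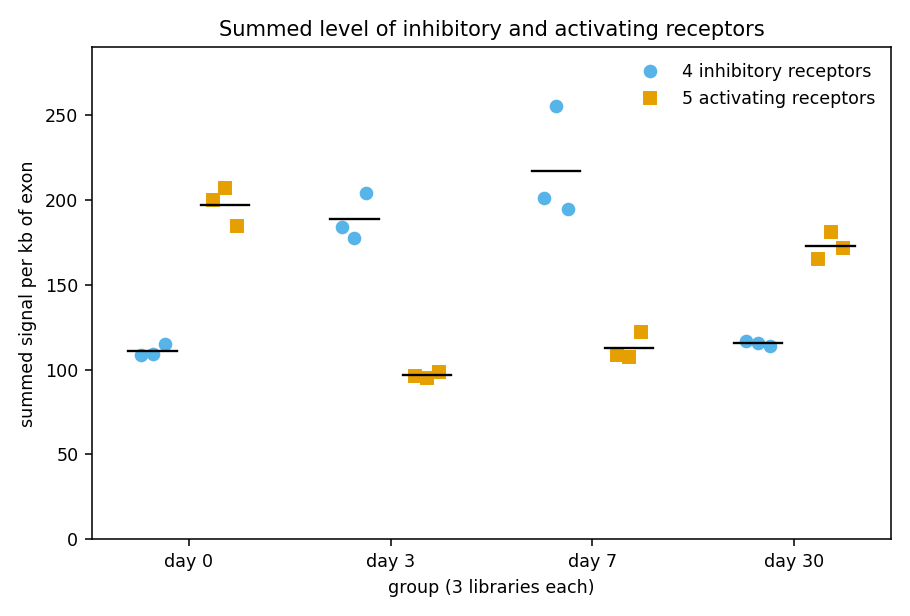
Summed signal per kilobase of exon of the 4 inhibitory and the 5 activating receptors in each library by day. Activating sums exceed inhibitory sums in the libraries of days 0 and 30, and the reverse holds in all 6 libraries of days 3 and 7.

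The CD300 genes lie side by side on chromosome 11 of GRCm38, from Cd300a (chr11:114890041-114904654, plus strand) through Cd300lb (chr11:114922781-114934386) and Cd300ld (chr11:114982274-114989922) to Cd300lf (chr11:115116214-115133992), these 3 on the minus strand. Cd300lf lies inside Rab37 on the opposite strand, which had a mean signal of at most 1.52 on any day. Whether the counting used strand is not given in the sources used here. Neighbours in the cluster did not share 1 pattern. AF251705 (Cd300c2), which lies between Cd300ld and Cd300e, rose on day 3 (0.68 ± 0.14, adjusted p = 0.00126) and on day 7 (1.304 ± 0.14, adjusted p = 1.83e-05) by limma with Benjamini-Hochberg adjustment, although quantile normalisation ended the day 3 call (0.28).

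Of the other CD300 family genes in the table, 6 were tested: 1 rose and 2 fell on day 3 against day 0, with a median difference of -0.40, beside 22.1% of all tested genes higher and 22.1% lower. The falls were Cd300lh (-0.90 ± 0.27, limma adjusted p = 0.0139) and Cd300e (-1.21 ± 0.36, limma adjusted p = 0.0125). The call for Cd300lh ended without the second library of day 3 (-0.47). That for Cd300e ended without replicate 2 or 3 of day 0 (-1.07 and -0.98), without replicate 1 of day 3 (-0.998) and with quantile normalisation (-0.94). On day 7, AF251705 was the 1 of 6 that passed, beside 21.6% of all tested genes. On day 30 none of the 6 passed by limma or edgeR, while 1 did by DESeq2 and 1 had an unadjusted p under 0.05. By limma 6.18% of all tested genes passed there. Gm11710 (Cd300ld4), which stood outside the list, had differences of 0.93, 1.27 and -0.13, each ± 0.39.

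Trem1 (chr17:48232768-48246924) and Trem3 (chr17:48247777-48258841) begin a second cluster on chromosome 17, plus strand. Treml2, a TREM-like receptor further along it, rose on day 3 (5.65 ± 0.27, limma adjusted p = 4.21e-10) and day 7 (2.82 ± 0.27, limma adjusted p = 5.85e-06), from a mean signal of 0.736 on day 0 to 81.7 and 10.8. Trem2, the DAP12-coupled lipid receptor of phagocytes, had mean signals of 41.2, 55.9, 290.4 and 46.7 on days 0, 3, 7 and 30, and rose on day 7 (2.75 ± 0.28, limma adjusted p = 1e-05). Its day 3 difference of 0.30 ± 0.28 did not pass. Treml4, between Trem3 and Treml2, had 0.51, 0.14 and -0.21, each ± 0.36. Sirpa (chr2:129592835-129632228, plus strand), Pilra (chr5:137821952-137836281, minus strand) and Lilra5 (chr7:4237754-4243463, plus strand) lie apart from these clusters.

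**Figure D4:**
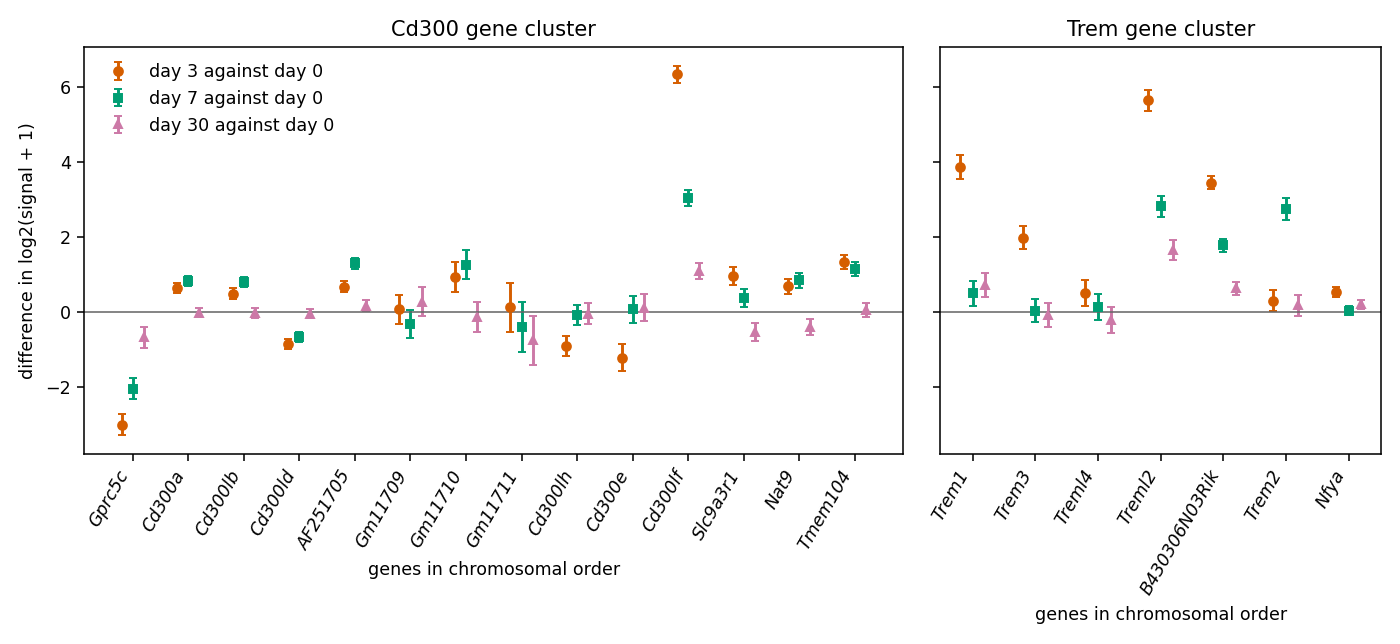
Difference in log2(signal + 1) from day 0 on days 3, 7 and 30 for the genes in and beside the CD300 and TREM clusters, in their order along the chromosome, with bars of 1 SE. Neighbouring genes differ in sign, with Cd300e at -1.21 and Cd300lf at 6.35 on day 3.

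The adaptors of the activating members were abundant on all days. Tyrobp had 735.7, 803.3 and 745.1 on day 0, 751.6, 913.1 and 869.0 on day 3, 986.0, 1139 and 1043 on day 7, and 468.7, 444.4 and 446.0 on day 30. It rose on day 7 (0.47 ± 0.14, limma adjusted p = 0.0257) and fell on day 30 (-0.75 ± 0.14, limma adjusted p = 0.00579), a call that ended when day 30 was counted as 1 sample (-0.75). Fcer1g rose on day 3 (0.64 ± 0.17, limma adjusted p = 0.00721) and day 7 (0.67 ± 0.17, limma adjusted p = 0.0124). Of 19 tested adaptors and kinases of activating signals, 11 rose and 2 fell on day 3 (median 0.64), and 8 passed on day 7, each of them higher (median 0.44). The shares over all tested genes were 22.1% higher and 22.1% lower on day 3, and 11.4% and 10.2% on day 7. The Src family kinase Fgr (3.03 ± 0.28, limma adjusted p = 3.84e-07) and the paracaspase Malt1 (1.69 ± 0.21, limma adjusted p = 9.36e-06) rose most on day 3. Syk, the kinase that binds the adaptors, had 0.19 ± 0.15 on day 3 and -0.19 ± 0.15 on day 7, and passed at neither.

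On the inhibitory side, 6 of 13 tested phosphatases and adaptors rose and 1 fell on day 3 (median 0.54), where 44.2% of all tested genes passed. Ptpn6, which encodes SHP-1, rose on day 3 (0.62 ± 0.19, limma adjusted p = 0.0172) and day 7 (0.60 ± 0.19, limma adjusted p = 0.0366). Ptpn11 (SHP-2) and Inpp5d (SHIP1) had 0.29 ± 0.16 and 0.25 ± 0.16 on day 3 and did not pass. Dok2, an adaptor that dampens Ras signalling, fell on day 3 (-0.77 ± 0.20, limma adjusted p = 0.00519) and day 7 (-1.65 ± 0.20, limma adjusted p = 4.03e-05), while its relative Dok3 rose on day 7 (1.01 ± 0.21, limma adjusted p = 0.00307). On day 30 against day 0, 3.45% of all tested genes were higher and 2.73% lower. Of the 13, 2 were higher there (Ptpn22 and Ubash3b) and 1 was lower (Dok2). Dok2 lost that call without any 1 library of day 0 or 30 (-0.75 to -0.85). Ptpn22 (0.74 to 0.86) and Ubash3b (0.56 to 0.67) lost it without the first or second library of day 0 or any 1 of day 30. All 3 lost it with day 30 as 1 sample.

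**Figure D5:**
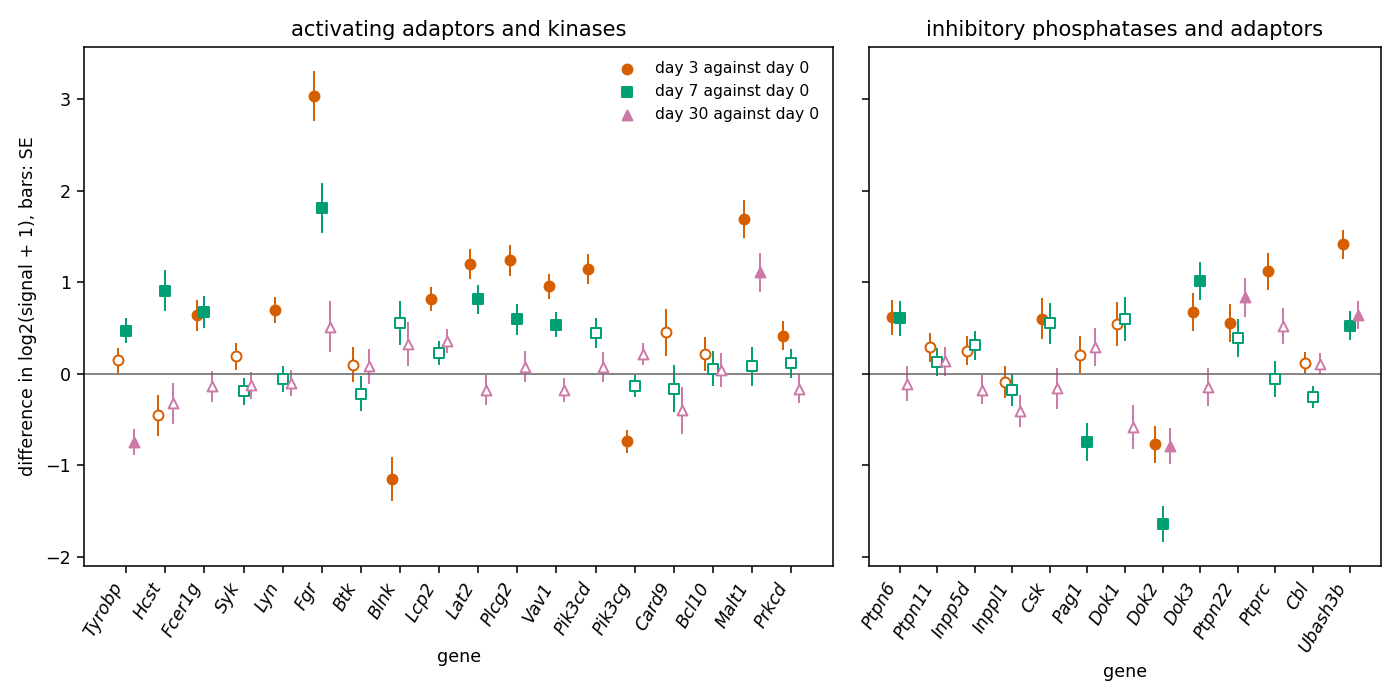
Difference in log2(signal + 1) from day 0 on days 3, 7 and 30 for adaptors and kinases of activating receptors (left, 1 gene not shown) and phosphatases and adaptors of inhibitory receptors (right), with bars of 1 SE and filled symbols for values that passed the threshold. Fgr reaches 3.03 on day 3, and Dok2 is below 0 on all 3 days, at -1.65 on day 7.

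Of 9 tested ligands and partner receptors, 4 rose and 3 fell on day 3, where 44.2% of all tested genes passed. Thbs1, which encodes thrombospondin-1, a secreted protein that binds CD47, rose from a mean signal of 12.9 to 2606 (7.52 ± 0.25, limma adjusted p = 2.21e-11). Cd47, the ligand of the Sirpa product, rose by 0.67 ± 0.14 on day 3 (limma adjusted p = 0.00123) and had 0.12 ± 0.14 on day 7, when Sirpa was highest. Timd4, a phosphatidylserine receptor of resident macrophages, fell on day 3 (-5.33 ± 0.41, limma adjusted p = 6.17e-08) and day 7 (-2.93 ± 0.41, limma adjusted p = 0.000145). Pianp, a ligand of the Pilra product, rose on day 7 (2.88 ± 0.27, limma adjusted p = 4.79e-06), from a mean signal of 1.43 to 17.3. The activating partners Pilrb1 and Pilrb2 share 50-base words with Pilra. Pilrb1 fell on day 7 (-0.72 ± 0.24, limma adjusted p = 0.0412), with overlapping libraries, and did not pass on day 3 (-0.38 ± 0.24). Pilrb2 fell on day 3 (-0.60 ± 0.18, limma adjusted p = 0.0139) and did not pass on day 7 (-0.47 ± 0.18).

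Among 26 other paired receptors tested, 15 rose and 4 fell on day 3 (median 0.72), and 8 rose and 5 fell on day 7 (median 0.16), beside 44.2% and 21.6% of all tested genes passing. On day 7, edgeR passed 10 and DESeq2 12 of the 26. Sirpb1c, an activating relative of Sirpa with near copies in the genome, rose on day 3 from a mean signal of 17.7 to 353.3 (4.34 ± 0.25, limma adjusted p = 2.79e-09). Tarm1, an activating receptor of myeloid cells, rose on day 3 from 0.418 to 28.8 (4.36 ± 0.33). Its mean was 0.87 on day 7 and 0.24 on day 30. It thus passed the filter on low values only through day 3, and its difference is given as a description. Siglece, an inhibitory sialic acid receptor, had a mean signal of 101.0 on day 0 and fell on day 3 to 12.03 (-2.98 ± 0.23, limma adjusted p = 6.97e-08). Its libraries of day 7 were at 65.1, 141.7 and 69.1, with the high value in replicate 2, which stood apart. Those of day 30 were at 77.9 to 82.8, against 98.6 to 102.9 on day 0.

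Some markers of the sorted cells and of other cells also differed between the days. In bulk libraries fewer cells of a type and less RNA per cell cannot be told apart. Against day 0, 22.1% of all tested genes rose and 22.1% fell on day 3. The share that was lower was 10.2% on day 7 and 2.73% on day 30. On day 3, all 11 Ly6C-high monocyte markers rose, with a summed signal of 5048 to 7936 against 252.6 to 591.8 on day 0. All 10 resident macrophage markers fell, from 4529 to 5654 down to 318.3 to 620.0. The gate genes Ly6c2 and Cx3cr1 are in these lists, so the sort set their direction. For the other members time and gate cannot be told apart. Of the neutrophil markers, 7 of 13 were found, 4 of 6 tested rose, and their sum was 251.0 to 313.6 on day 3 against 53.2 to 102.5, with Mmp8 at 60.6 to 66.7 and Csf3r at 149.2 to 184.7. Csf3r, the largest part of that sum, was at 47.8 to 54.7 on day 0. Of the 4 that rose, Lcn2 passed the filter on low values only through day 3. Its means were 0.181, 0.0487 and 0.210 on days 0, 7 and 30, so its rise is given as a description. The granulocyte gene S100a8 overlapped between the days, at 31.8, 6.38 and 13.9 on day 3 and 1.58, 7.02 and 17.6 on day 0. Retnlg, a neutrophil gene, was at 0.265 to 1.25 on day 3. Fibroblast markers summed to 530.5 to 2150 on day 7 against 38.0 to 109.7 on day 0. The 2150 was in replicate 2, which stood apart, and the fibroblast genes Dcn and Pdgfra did not pass on day 7. Mast cell markers summed to 22.6 to 40.9 on day 0, 0.575 to 0.794 on day 3 and 2.54 to 3.61 on day 30, when 4 of 5 tested were lower than on day 0. Cpa3, Mcpt4 and Tpsb2 among these passed the filter on low values only through day 0, so their falls are given as a description. All 7 cardiomyocyte markers fell on day 3 and on day 30, with sums of 53.5 to 149.4 on day 0, 3.42 to 6.22 on day 3 and 11.02 to 11.4 on day 30. Myl3 among them also passed the filter only through day 0. On day 7, 6 of the 10 resident macrophage markers were lower than on day 0. Their part in the receptor levels was not tested.

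For each receptor, the genes with the most similar levels were found by Pearson's r of log2(signal + 1) over the 12 libraries, among genes that averaged 10 or more. The libraries share their groups and depths, and genes are not independent, so these are descriptions. Cd300lf was most like Plin2 (0.99) and Il18bp (0.99), and Trem1 most like Il1rn (0.98) and the activating receptor gene Pira2 (0.98). Lilra5 was most like Sft2d2 and Ctnnd1 (0.997 and 0.996), Sirpa like Pld3 (0.99) and Anpep (0.98), and Cd300a like Nmt1 (0.98) and Gyg (0.98). Gyg (0.97) and Ctsd (0.97) stood closest to Cd300lb, Adam22 (0.99) and Exoc6b (0.98) to Cd300ld, Klf13 (0.97) and Sipa1l3 (0.97) to Trem3, and Rae1 (0.95) and Atg4b (0.89) to Pilra. Within the 9, r was 0.96 for Cd300a with Cd300lb, 0.92 for Trem1 with Trem3 and -0.98 for Cd300lf with Lilra5.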

How the data were processed

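RNA was sequenced in 12 libraries, and per the submitters' processing notes the tools were cutadapt 1.3, RSEM 1.2.20 and edgeR 3.14.0 with the build GRCm38; their roles are not given in the sources used here. The authors deposited a linear normalised signal per gene, and 12 further columns that equal its log2 with values below 1 set to 0 (173520 of 173520 cells within 1e-06), not used here. All signal values were whole multiples of 1 step per library, so reads were recovered (100% whole within 0.02 reads). Of the identifiers, 98.5% were in GENCODE M21 (GRCm38), which gave coordinates and exon lengths.

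Log2(signal + 1) of 12879 genes was fitted with limma 3.58.1 (R 4.3.3; trend in the variance prior, 4 group means), two-sided, with Benjamini-Hochberg adjustment over all tested genes and a threshold of 0.05. The fit was checked on simulated counts that had the same dispersion in all genes and groups. That check does not cover groups of unequal spread or libraries that stand apart, as found here. Receptors and lists were chosen with earlier results of these data known. All 9 receptors are described; of the other genes, mainly those with the largest changes per list are named, and 1 such result is not reported here. Each of the 5 comparisons had 23 alternatives, edgeR 4.0.16 and DESeq2 1.42.0 on recovered reads among them. The labels give no pairing, so none was used. In their deviations, same-numbered replicates correlated at -0.08 to 0.21 and other-numbered ones at -0.23 to 0.20.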

Additional observations from a re-analysis of the deposited data

How the results depend on the processing

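In the order of the report (3 comparisons with day 0, then day 7 with day 3 and day 30 with day 7), the genes passing numbered 5698, 2782, 796, 6032 and 5103. Leaving out 1 library gave 4646 to 6750, 1867 to 3335, 235 to 1990, 5020 to 6224 and 3474 to 5502 genes, and 7 to 8, 6, 0 to 1, 5 to 6 and 6 of the 9 receptors; the 0 was without the second library of day 30. With the replicate number as a block the counts were 5725, 2850, 835, 6040 and 5144 genes, and the receptors passing numbered 8, 6, 1, 5 and 6, the same as without it. For day 30 against day 0, DESeq2 gave 1328 genes and 2 receptors, leaving out a pair of libraries (replicate 1 of day 0, replicate 2 of day 7) 2513 genes, and counting day 30 as 1 sample 14 genes and 0 receptors. Counting day 30 as 1 sample gave 1740 genes for day 7 against day 0 and 815 for day 30 against day 7. Quantile normalisation gave 5 receptors for day 3 against day 0 and 8 for day 7 against day 3. No scaling moved the median of all genes by more than 0.0902.

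Of 1030 receptor values under alternatives, 977 kept direction and side of the threshold, 17 lost and 7 gained the call, and 29 changed sign, all of them values that did not pass. The cause was not tested. Pilra changed sign with quantile normalisation from day 0 to day 3 (-0.0702), from day 0 to day 7 (-0.005) and from day 3 to day 7 (0.0651). On day 7 against day 0 Pilra also had -0.0241 with median centring, -0.3035 without the pair, and -0.1715 to 0.2219 when 1 library was left out (-0.1109 without replicate 1 and -0.0069 without replicate 2 of day 0). On day 30 against day 7 it had 0.0112 without the pair, and -0.3822 to 0.0112 when 1 was left out. Trem3 on day 7 against day 0 had -0.007 with median centring, -0.1746 without the pair and -0.1885 to 0.2565 when 1 was left out (-0.1828 without replicate 1 of day 0). On day 30 against day 0, Trem3 had -0.2909 to 0.0591 when 1 was left out (0.0217 without replicate 2 of day 0, 0.0067 without replicate 1 of day 30). There Cd300a had 0.0357 with median centring, 0.0015 with edgeR, 0.0043 without the pair and -0.0258 to 0.0043 when 1 was left out. Cd300lb had 0.0178 with median centring and -0.082 to 0.0397 when 1 was left out (0.0293 without replicate 1 of day 30). Cd300ld had 0.0086 with median centring, 0.0109 without the pair and -0.1165 to 0.0109 when 1 was left out. On day 30 against day 7, leaving out 1 library gave -0.0565 to 0.413 for Trem1 and -0.3265 to 0.1185 for Trem3.

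At this depth, values of Lilra5 on day 3 and of Trem1, Trem3 and Cd300lf on day 0 rest on few reads (2 to 21 per library), so their differences depend on the pseudocount.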

Other observations

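2 further paired receptor genes, Lilrb4 and Gp49a, which are near copies whose reads may be split between them, were high on days 3 and 30. Mean signals on days 0, 3, 7 and 30 were 316.7, 1241, 308.4 and 644.7 for Lilrb4 and 447.9, 1864, 306.5 and 1243 for Gp49a. On day 30 against day 0 the difference was 1.02 ± 0.16 for Lilrb4 (limma adjusted p = 0.00201) and 1.47 ± 0.21 for Gp49a (limma adjusted p = 0.000787). Both calls ended when the libraries of day 30 were counted as 1 sample (1.02 and 1.47). Lilrb4 was picked after its values were seen. Cd200r4, an activating relative of the CD200 receptor, was higher than on day 0 on all 3 later days, by 3.78 ± 0.27 on day 3 (limma adjusted p = 2.92e-08), 2.58 ± 0.27 on day 7 (limma adjusted p = 1.09e-05) and 1.501 ± 0.27 on day 30 (limma adjusted p = 0.00472). The day 30 call ended with day 30 as 1 sample (1.504).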
